A study of Zea mays with 8 samples.

Results

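The genes vp1 (GRMZM2G133398), dhn1, also called rab17 (GRMZM2G079440), and mlg3 (GRMZM2G096475) were followed through the endosperm of filling maize kernels. They were taken by their identifiers, but the choice was made with earlier results of these data known. All 3 were present among the 39475 gene IDs of every gene-level table. RNA was sequenced from 8 libraries of the inbred line B73, which carried no added allele or treatment. The 4 groups were aleurone at 22 days after pollination (DAP), aleurone at 18 DAP, starchy endosperm at 22 DAP and starchy endosperm at 18 DAP, with 2 biological replicates each. The tissues were separated by mechanical peeling of thawed kernels from replicate plants, so each library held the RNA of many cells. In such samples, fewer cells of a type and less RNA per cell cannot be told apart.

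The aleurone is the outer cell layer of the cereal endosperm. It stays alive through the drying of the seed, while the starchy endosperm beneath it fills with starch and storage protein and dies. VP1 (VIVIPAROUS1) is a transcription factor with a B3 DNA-binding domain that turns on genes of seed maturation together with the hormone abscisic acid (ABA). Maize kernels that lack it germinate on the ear and lack anthocyanin in the aleurone. The dehydrin DHN1/RAB17 is a hydrophilic protein that accumulates in seeds and dry tissues in response to ABA. MLG3 belongs to group 3 of the late embryogenesis abundant (LEA) proteins, which accumulate late in seed development and are linked to survival of water loss.

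The libraries differed in depth, with total counts between 2473036 and 11529170. Between 9343 and 23244 genes had a count, fewest in starchy endosperm at 22 DAP replicate 2. The aleurone markers found in the tables were plt1, a lipid transfer protein, and the zeamatin-like Zlp. These 2 markers summed to between 7069 and 28624 TPM (a share of all transcripts in the library, corrected for gene length) in aleurone, against 13.2 to 23.4 TPM in starchy endosperm. The 8 starchy endosperm markers, zeins and starch genes, summed to between 23664 and 56218 TPM in aleurone, against 81921 to 165469 TPM in starchy endosperm. These markers were thus also abundant in the aleurone libraries, and the part of starchy endosperm left on the peels in this was not tested. Of the embryo markers, 6 were found, and they summed to between 0.52 and 9.61 TPM in aleurone, against 2.95 to 6.88 TPM in starchy endosperm, with lec1 and nam1 at 0 in all 8 libraries. The 8 basal transfer layer markers summed to between 4.92 and 15.4 TPM in aleurone, against 0 to 3.20 TPM in starchy endosperm. The 4 markers of the embryo-surrounding region and the 3 of photosynthesis reached at most 0.59 and 2.27 TPM in aleurone, and were at 0 in starchy endosperm.

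The regulator vp1 had counts in the aleurone libraries alone. Its level was 23.5 and 61.9 TPM in the 2 aleurone libraries at 22 DAP and 34.1 and 47.7 TPM in those at 18 DAP. It had no count in any of the 4 starchy endosperm libraries, among 23955763 counts in all, where RSEM, the authors' counting program, put the upper bound of its level at 1.21 TPM or less. The aleurone values of the 2 ages overlapped, and the replicates at 22 DAP enclosed those at 18 DAP. Among the genes detected in a library, vp1 ranked 2101st to 6857th by TPM, which is between the top 10.4% and the top 29.5%.

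The dehydrin dhn1 followed the same division with a trace in the younger starchy endosperm. It stood at 56.6 and 73.6 TPM in aleurone at 22 DAP and at 46.4 and 66.3 TPM in aleurone at 18 DAP. In starchy endosperm it had 0 counts in both libraries at 22 DAP, and 2 and 1 counts (0.34 and 0.05 TPM) at 18 DAP. The aleurone libraries again overlapped between ages, and the lowest of them was far above every starchy endosperm library.

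The LEA gene mlg3 was the most abundant of the 3. It stood at 66.3 and 94.0 TPM in aleurone at 22 DAP and at 101.6 and 162.2 TPM in aleurone at 18 DAP. Among the starchy endosperm libraries, replicate 2 at 18 DAP held a single count (0.08 TPM) and the other 3 held none. Here the aleurone values of the 2 ages did not overlap, with both libraries at 22 DAP below both at 18 DAP. Of the 19058 genes tested below, 18.5% were likewise lower at 22 DAP without overlap, and 11.4% were higher. In aleurone at 18 DAP replicate 2, mlg3 ranked 751st of 20679 detected genes, or in the top 3.63%.

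**Figure D1:**
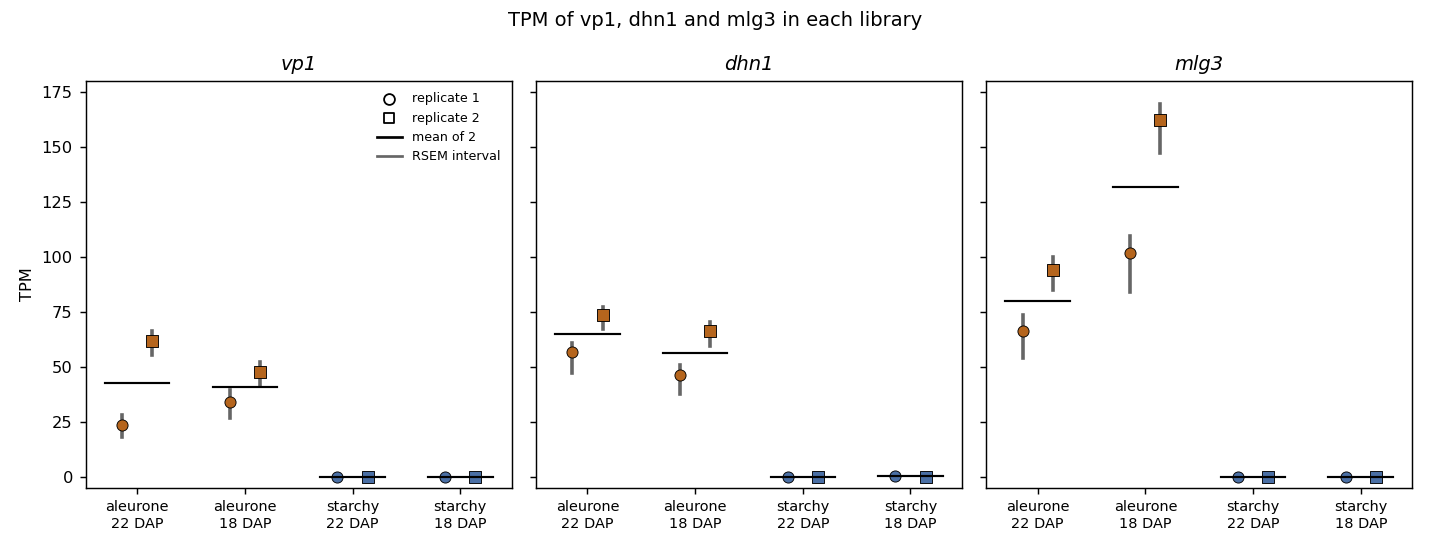
Level of vp1, dhn1 and mlg3 in TPM (vertical axis) in each of the 8 libraries, with the 2 aleurone groups left of the 2 starchy endosperm groups; circles and squares are replicates 1 and 2, black bars the mean of 2 libraries and grey lines the interval that RSEM gave for each value. All aleurone libraries lie between 23.5 and 162.2 TPM, and all starchy endosperm libraries lie at or below 0.34 TPM.

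Over the 4 aleurone libraries, mean levels were 106 ± 40.4 TPM for mlg3, 60.7 ± 11.8 TPM for dhn1 and 41.8 ± 16.7 TPM for vp1 (SD, n = 4). Each library kept the order mlg3, dhn1, vp1. Over libraries, however, the range of dhn1 overlapped with that of mlg3 and with that of vp1. Replicate 2 was above replicate 1 for all 3 genes at both ages, by a TPM ratio between 1.30 (dhn1 at 22 DAP) and 2.64 (vp1 at 22 DAP). On TMM-scaled CPM, the scale of the tests below, that ratio lay between 1.79 (dhn1 at 22 DAP) and 4.23 (vp1 at 22 DAP), with 2.51 for vp1 at 18 DAP. The summed aleurone markers were also higher in replicate 2, at 17936 against 7069 TPM at 22 DAP and 28624 against 14842 TPM at 18 DAP, and so was the depth, at 7001758 against 3074186 and 5991344 against 2944736 counts. The part of depth, or of whatever set the marker sums, in the levels of the 3 genes was not tested.

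The level of vp1 rested on more than its reads, because its 3 annotated transcript models differ in length. T01 has 1248 bases, T02 has 2717 and T03 has 2635. The single models of dhn1 and mlg3 have 1711 and 1087 bases. T01 supplied 69.3% and 52.6% of vp1 TPM in aleurone at 22 DAP, and 58.6% and 14.9% at 18 DAP. T03 supplied 30.7% and 42.6% at 22 DAP, and 27.3% and 85.1% at 18 DAP. T02 supplied 0% and 4.77% at 22 DAP, and 14.1% and 0% at 18 DAP. The short T01 was thus the main model in 3 of the 4 aleurone libraries and T03 in the remaining one, replicate 2 at 18 DAP. There, T01 was at 7.11 TPM with an RSEM interval of 0.979 to 13.0, whereas in replicate 1 of the same age it was at 20.0 TPM with an interval of 12.0 to 25.9. The share of T01 averaged 61.0 ± 11.8% at 22 DAP and 36.8 ± 30.9% at 18 DAP (SD, n = 2 each), and this difference was smaller than the spread at 18 DAP.

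**Figure D2:**
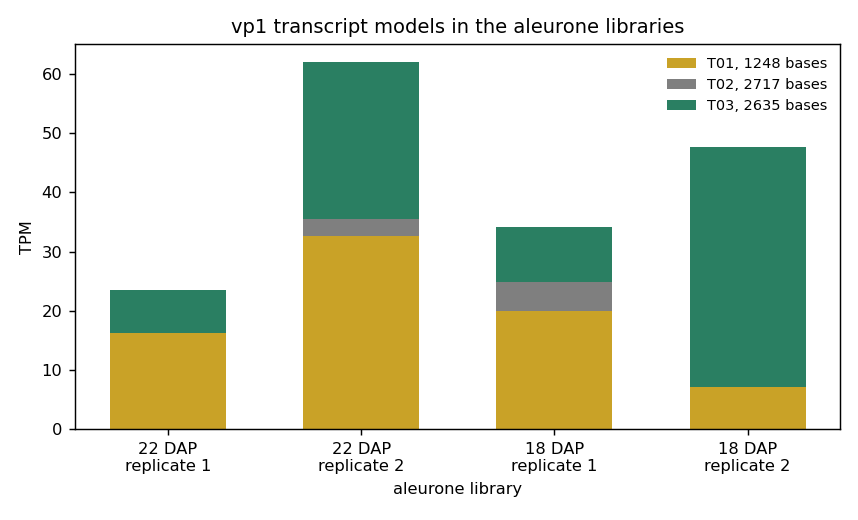
TPM of the 3 vp1 transcript models (vertical axis, stacked) in each aleurone library, with 22 DAP left of 18 DAP. T01, the shortest model, is the largest segment in every library except 18 DAP replicate 2, where T03 holds 85.1% of vp1 TPM.

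The same vp1 reads gave a different TPM when they were all assigned to 1 model. With T01 alone, the values became 32.8 and 100.0 TPM in aleurone at 22 DAP and 52.7 and 100.1 TPM at 18 DAP. With T03 alone, they became 14.3 and 43.7 TPM at 22 DAP and 23.0 and 43.7 TPM at 18 DAP. Under T01 alone vp1 would stand above dhn1 in 3 of the 4 libraries, so the order of these genes in TPM depended on the assignment. The counts that enter the tests below did not depend on it.

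To find whether the 3 genes differed between the tissues, counts were compared with edgeR's quasi-likelihood test over all 19058 genes that passed a filter on low counts, with adjustment by Benjamini-Hochberg and a call at an adjusted p under 0.05. All 3 genes passed the filter, through their aleurone libraries only, and so could only be called higher. At 22 DAP, dhn1 and mlg3 were called higher in aleurone, against 1.19% of tested genes called in that direction (226 genes). The gene dhn1 had 1015 counts in aleurone and 0 in starchy endosperm, at least 116-fold higher (adjusted p = 0.0218), where such bounds are set against a floor of 3 counts over the group. The gene mlg3 had 733 counts in aleurone and 0 in starchy endosperm, at least 84.0-fold higher (adjusted p = 0.0184). With 837 counts in aleurone against 0, vp1 was at least 96.0-fold higher but missed the threshold (adjusted p = 0.0536). With the replicate number as a block it was called (adjusted p = 0.0404), and the number of genes called in either direction was 580 instead of 322. In all 3 cases both aleurone libraries lay above both starchy endosperm libraries. The calls were lost without replicate 2 of aleurone at 22 DAP (adjusted p = 0.0763 for dhn1 and 0.0649 for mlg3) and in a fit of the 4 libraries of this age alone, which called 0 genes. DESeq2 called all 3 members at 22 DAP, vp1 with an adjusted p of 5.12e-05, and called 1857 of all tested genes higher.

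At 18 DAP all 3 were called higher in aleurone, where 1.21% of tested genes were called in that direction (230 genes). The count of vp1 was 743 in aleurone and 0 in starchy endosperm. For dhn1 it was 740 against 3, and for mlg3 1018 against 1. The adjusted p was 0.0409 for vp1, 0.0394 for dhn1 and 0.0138 for mlg3. With the replicate block these calls held, and the number of genes called in either direction was 808 instead of 395. Each of these calls was lost without replicate 2 of starchy endosperm at 18 DAP, which was the deepest library (adjusted p = 0.274 for vp1, 0.260 for dhn1 and 0.150 for mlg3). They were also lost without replicate 1 of the same group (0.107, 0.0793 and 0.0780 in the same order) or without replicate 2 of aleurone at 18 DAP (0.153, 0.197 and 0.0973). Those of vp1 and dhn1 were lost without replicate 2 of aleurone at 22 DAP (0.0506 and 0.0766).

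When the tissue difference was averaged over both ages, all 3 genes were higher in aleurone, against 5.95% of tested genes called in that direction (1134 genes). The gene vp1, with 1580 counts in aleurone and 0 in starchy endosperm, was at least 228-fold higher (adjusted p = 0.00540). For dhn1, with 1755 against 3 counts, the ratio of scaled counts was 253, with a 95% interval of 86.6 to 1230 from counting error alone (adjusted p = 0.00249). For mlg3, with 1751 against 1 count, the ratio was 759, with an interval of 136 to 29981 (adjusted p = 0.00135). All 3 calls were kept in each of the 8 fits that left out 1 library, where the highest adjusted p was 0.0295 for vp1, 0.0155 for dhn1 and 0.0137 for mlg3. In TPM, an exact two-sided permutation test of 4 against 4 libraries gave p = 0.0286 for each gene, the smallest value that its 70 assignments allow. Any gene whose aleurone libraries all lie above its starchy endosperm libraries gets this p, and the share of such genes was not computed. The assignments kept neither the ages nor the replicate numbers together. The differences in mean log2(TPM + 1), aleurone minus starchy endosperm, were 5.33 for vp1, 5.80 for dhn1 and 6.64 for mlg3. On this scale the median tested gene was also higher in aleurone, by 1.97.

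These sizes depend on the scaling between tissues. The main scaling (TMM, a trimmed mean over genes) left the median tested gene at a log2 fold change of 0.77 in the average over ages, whereas scaling by library size alone left it at 2.40. The bound for vp1 over both ages was then 666-fold, and the ratios were 740 for dhn1 and 2214 for mlg3. The genes called over both ages were 1134 higher and 560 lower with TMM, against 6858 and 141 with library size alone. The 3 members were called higher under both.

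To find whether the genes changed as the aleurone matured, aleurone at 22 DAP was compared with aleurone at 18 DAP. None of the 3 was called, and neither was any other gene (0%). Of the 19058 tested genes, 196 had an unadjusted p under 0.05, DESeq2 called 3 and limma called 25 on log2(TPM + 1). The log2 fold change, 22 minus 18 DAP, was -0.02 for vp1 (SE 1.01), 0.34 for dhn1 (SE 0.86) and -0.59 for mlg3 (SE 0.80), each with an adjusted p of 1 by edgeR. Mean levels were 42.7 ± 27.2 TPM at 22 DAP and 40.9 ± 9.58 TPM at 18 DAP for vp1, and 65.1 ± 12.0 against 56.3 ± 14.1 TPM for dhn1 (SD, n = 2 each). For mlg3 they were 80.1 ± 19.6 TPM at 22 DAP against 131.9 ± 42.8 TPM at 18 DAP. With standard errors near 1 log2 unit, a 2-fold change of any of these genes was not detectable at this depth and number of libraries.

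In starchy endosperm, 22 against 18 DAP gave no fold for the members, since both groups held 3 counts or fewer. The change of the tissue difference between ages (interaction) was not called for dhn1 (4.86, SE 2.35, adjusted p = 1.00 by edgeR) or mlg3 (2.07, SE 1.97, adjusted p = 1.00), nor for any other tested gene (0%). Its unadjusted p was under 0.05 for 390 genes, and DESeq2 called 7. For the members it compares aleurone levels against 3 counts or fewer.

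The balance of mlg3 and dhn1 within a library, which was looked at after the values had been seen, is free of the scaling between libraries. The TPM ratio of mlg3 to dhn1 was 1.17 and 1.28 in aleurone at 22 DAP, and 2.19 and 2.45 at 18 DAP. Of the counts of both genes together, mlg3 held 40.3% (95% exact interval 35.5 to 45.3) and 42.4% (39.8 to 45.1) at 22 DAP. It held 55.8% (50.8 to 60.7) and 58.5% (55.8 to 61.2) at 18 DAP. The groups did not overlap, and the intervals, which cover counting error only, did not overlap either. The share of gene pairs whose ratio separates the ages in this way was not computed. For the TPM of single tested genes in aleurone, 18.5% were lower and 11.4% higher at 22 DAP without overlap. The log2 ratio was 0.29 ± 0.088 at 22 DAP and 1.21 ± 0.11 at 18 DAP (SD, n = 2 each), a difference of -0.92. An exact two-sided permutation test of 2 against 2 libraries gave p = 0.333, the smallest it allows, so the design cannot test this difference by permutation. The ratio of dhn1 to vp1 was 2.41 and 1.19 at 22 DAP and 1.36 and 1.39 at 18 DAP, and the ages overlapped.

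**Figure D3:**
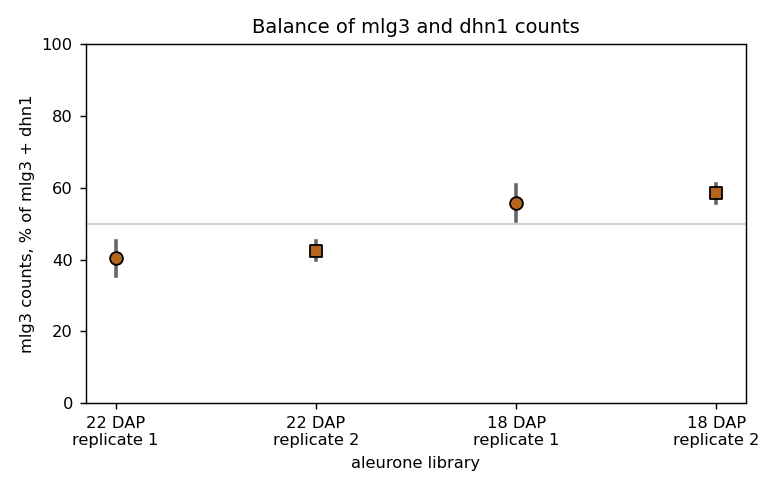
Counts of mlg3 as a percentage of the counts of mlg3 and dhn1 together (vertical axis) in the 4 aleurone libraries, with 22 DAP left of 18 DAP; circles and squares are replicates 1 and 2 and grey lines are exact 95% binomial intervals. Both libraries at 22 DAP lie below 50% (40.3% and 42.4%) and both at 18 DAP above it (55.8% and 58.5%).

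Among the other LEA and dehydrin genes, dehydrin7 was higher in aleurone over both ages. The list held 7 genes, all tested, with dhn1 and mlg3 among them. Called higher in aleurone were dhn1 and mlg3 at 22 DAP and again at 18 DAP, and these 2 with dehydrin7 over both ages. In each of the 3 comparisons 0 were lower, against 0.504% (22 DAP), 0.866% (18 DAP) and 2.94% (both ages) of tested genes. However, dhn1, mlg3, dehydrin7, lea14a and emb5 each had 3 counts or fewer in starchy endosperm and could not be called lower. For this list, these shares are thus not a like measure. Without the members, the median log2 fold change over both ages was 5.41 for the 5 others (4.41 with genes at their bound), against 0.77 for all tested genes. Of these others, dehydrin7, lea14a and emb5 had 2 counts or fewer in starchy endosperm and were tested only because of their aleurone counts. Their fold changes could only be positive, so the 2 medians are not like measures. The gene dehydrin7 (GRMZM2G002786) stood at 70.6 and 23.8 TPM in aleurone at 22 DAP and 85.4 and 83.1 TPM at 18 DAP, and at 0, 0, 0.27 and 0 TPM in starchy endosperm. Its ratio over both ages was 460 (95% interval 82.4 to 18191, adjusted p = 0.00662). With 1 count in starchy endosperm, dehydrin7 also passed the filter through aleurone only. Here and for the genes below that were called only over both ages or not at all, the gene was chosen for mention after its values were seen.

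By edgeR the other 4 LEA genes were not called over both ages, whereas DESeq2 called 5 of the 7 (lea14a and dhn2 in addition) and limma on log2(TPM + 1) called all 7. Of the 19058 tested genes, DESeq2 called 3420 higher over both ages and limma 14402, so a call by limma sets a gene little apart. The gene lea14a (GRMZM2G050607) was at 6.02 and 16.2 TPM in aleurone at 22 DAP, 16.6 and 13.5 TPM at 18 DAP and 0 TPM in all starchy endosperm libraries (adjusted p = 0.0679 over both ages). The dehydrin dhn2 (GRMZM2G373522) was at 16.5 and 40.3 TPM in aleurone at 22 DAP, 8.08 and 10.6 TPM at 18 DAP, and between 0 and 1.50 TPM in starchy endosperm (adjusted p = 0.0606). By contrast, rab15 (GRMZM2G165901) was abundant in both tissues, at 653 and 1199 TPM in aleurone at 22 DAP, 622 and 1257 TPM at 18 DAP, and between 105 and 217 TPM in starchy endosperm. Its log2 fold change over both ages was 0.56 (SE 0.40, adjusted p = 0.418). The Em-type LEA gene emb5 (GRMZM2G162659) stayed at or below 4.48 TPM in every library (adjusted p = 0.278).

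Of the genes of ABA synthesis, 3 of 4 were higher in aleurone over both ages by edgeR, against 5.95% of all tested genes. These 3, vp14, vp15 and aba1, had 0 counts in starchy endosperm and passed the filter through aleurone only. They could only be called higher, so the share of all tested genes is not a like measure. All 4 genes of the list were tested, and 0 were called at either age by edgeR, against 1.19% (22 DAP) and 1.21% (18 DAP) of tested genes. An unadjusted p under 0.05 was reached by all 4 at 22 DAP and 3 at 18 DAP, and by 3090 and 2969 of the 19058 tested genes. DESeq2 called 3 and 2 of the 4 higher, against 1857 and 1588 of all tested genes. The gene vp14 (GRMZM2G014392), which encodes the carotenoid-cleaving enzyme that commits carbon to ABA, was at 7.99 and 20.7 TPM in aleurone at 22 DAP and 1.26 and 1.78 TPM at 18 DAP, with 0 TPM in starchy endosperm. Over both ages its bound was 64.8-fold (adjusted p = 0.0380). The gene vp15 (GRMZM2G121468), needed for the molybdenum cofactor of the last step, was at 16.1 and 37.0 TPM in aleurone at 22 DAP and 19.4 and 30.1 TPM at 18 DAP, with a bound of 34.9-fold (adjusted p = 0.0498). For aba1 (GRMZM2G136910) the bound was 82.2-fold (adjusted p = 0.0258). The aldehyde oxidase ao1 (GRMZM2G141535) was at 25.3 and 51.9 TPM in aleurone at 22 DAP, 25.3 and 25.6 TPM at 18 DAP, and at most 4.33 TPM in starchy endosperm, and was not called by edgeR (adjusted p = 0.0919), but was by DESeq2 (0.00476) and limma (0.00132). DESeq2 and limma each called all 4 over both ages, where they called 3420 and 14402 of all tested genes higher. The calls of vp14 and vp15 held in 2 of the 8 fits without a library and that of aba1 in 5. With the replicate number as a block, vp14 (adjusted p = 0.0571) and vp15 (0.0727) were not called, which left 1 of the 4.

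Genes of ABA perception mostly had a level in both tissues. Of 18 genes for receptors (PYL) and kinases (SnRK2), 13 were tested, and 0 were called at either age by edgeR. An unadjusted p under 0.05 was reached by 3 at 22 DAP and 4 at 18 DAP, and DESeq2 called 2 and 4. Over the 19058 tested genes, that p was reached by 3090 and 2969. DESeq2 called 1857 of them higher and 503 lower at 22 DAP, and 1588 higher and 633 lower at 18 DAP. Over both ages 1 of the 13 was higher and 2 were lower in aleurone, against 5.95% and 2.94% of all tested genes, with a list median of -0.34 against 0.77 for all tested genes. The higher one was PYL3 (GRMZM2G154987), at 32.0 and 48.3 TPM in aleurone at 22 DAP and 48.6 and 54.2 TPM at 18 DAP, against 0.31, 0, 0.25 and 0 TPM in starchy endosperm. Its ratio was 192 (95% interval 52.9 to 1586, adjusted p = 0.0164), and its call held in 5 of the 8 fits without a library. With 1 count in starchy endosperm at each age, this PYL3 gene passed the filter through aleurone only. Another gene listed as PYL3 (GRMZM2G047677) was not tested. It was at 0 TPM in aleurone and had 1 count in starchy endosperm at 18 DAP. The kinase gene SnRK2.11 (GRMZM2G063961) was lower, with a log2 fold change over both ages of -2.48 (adjusted p = 0.0152, SE 0.47), and so was the receptor gene PYL6 (GRMZM2G141382), with one of -2.91 (adjusted p = 0.0496, SE 0.77). In TPM, SnRK2.11 stood at 42.2 and 24.5 in aleurone at 22 DAP and 26.5 and 14.9 at 18 DAP, within the range of starchy endosperm (13.9 to 48.2). With library size as the only scaling, SnRK2.11 was at -0.81 (adjusted p = 0.192) and PYL6 at -1.39 (adjusted p = 0.163). The call of SnRK2.11 held in 6 of the 8 fits without a library and that of PYL6 in 3, and PYL6 was not called with RLE factors (adjusted p = 0.0532). With the replicate block, 2 were higher (PYL3 and PYL9) and 3 lower (SnRK2.11, PYL6 and PYL8, of which PYL8 was at 0.43 by limma on log2(TPM + 1), adjusted p = 0.430) over both ages, and SnRK2.11 and PYL6 were also lower at 18 DAP (adjusted p = 0.0236 and 0.0324).

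Of the globulins and other reported targets of VP1, 4 of 7 were tested, and 0 were called in any of the 3 tissue comparisons by edgeR. Over both ages 3 of them had an unadjusted p under 0.05, and DESeq2 called 3 (2 higher and 1 lower). Of the 19058 tested genes, 5224 had such a p, and DESeq2 called 3420 higher and 1073 lower. The anthocyanin regulator c1, a direct target of VP1 in the aleurone, and its relative pl1 were listed at 0 TPM in all 8 libraries. The catalase gene cat1 (GRMZM2G088212) stood at 209 and 150 TPM in aleurone at 22 DAP and 220 and 219 TPM at 18 DAP, against 23.3 and 21.2 TPM and 25.5 and 28.3 TPM in starchy endosperm. The TMM-scaled log2 fold change of cat1 over both ages was 0.97 (SE 0.26, adjusted p = 0.0548; 0.0259 with the replicate block). The gene glb3 (GRMZM2G410134) lay the other way, at 224 and 1099 TPM in aleurone at 22 DAP and 137 and 548 TPM at 18 DAP, against 337 and 2101 TPM and 330 and 2157 TPM in starchy endosperm. Its log2 fold change over both ages was -3.20 (SE 0.91, adjusted p = 0.0639), and with the replicate block it was lower at 22 DAP (adjusted p = 0.00148), at 18 DAP (0.000440) and over both ages (8.38e-05). Over both ages DESeq2 also called glb3 lower (adjusted p = 0.00458), whereas limma on log2(TPM + 1) did not (-1.19, adjusted p = 0.210). The NAKED ENDOSPERM factors of aleurone identity, nkd1 and nkd2, were not called over both ages by edgeR (adjusted p = 0.179 and 0.548, 1 with an unadjusted p under 0.05). DESeq2 called 0, and limma on log2(TPM + 1) called both, as it called 14402 of all tested genes higher. In TPM, nkd1 was at 101 and 156 in aleurone at 22 DAP and 73.7 and 74.9 at 18 DAP, against 9.13 to 17.2 in starchy endosperm. The gene nkd2 was at 49.4 and 63.6 TPM in aleurone at 22 DAP and 37.2 and 32.4 TPM at 18 DAP, against 3.91 to 14.2 TPM in starchy endosperm. All 3 oleosins, which coat oil bodies, were higher in aleurone at both ages, against 1.19% of all tested genes at 22 DAP and 1.21% at 18 DAP. Among them was GRMZM2G333069, listed at 0 counts in starchy endosperm, with bounds of 389-fold at 22 DAP and 572-fold at 18 DAP (adjusted p = 0.00704 and 0.00556). It passed the filter through aleurone only. No ABA-response bZIP factor was tested: the only symbol of that list that was found, ereb1, also carries names of another family of factors and had too few counts.

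**Figure D4:**
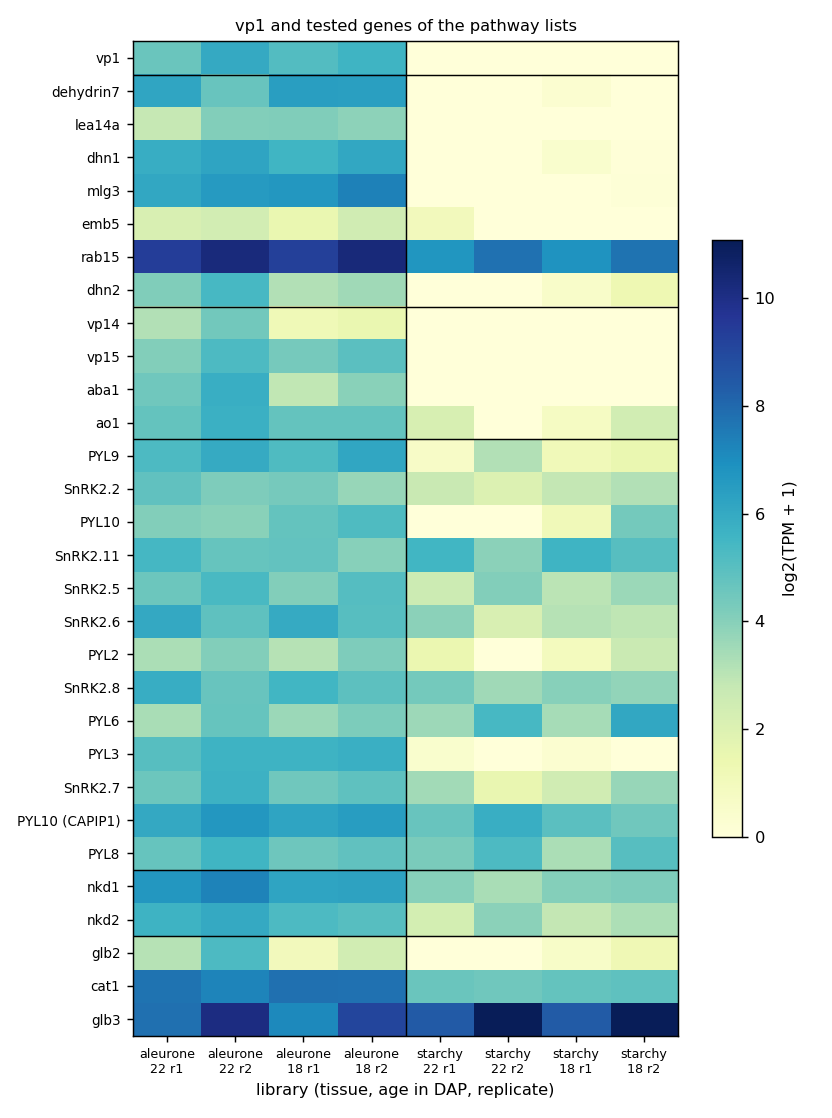
Level as log2(TPM + 1), shown by color, of vp1 (top row) and the tested genes of 5 lists (rows, separated by lines: LEA and dehydrin genes, ABA synthesis, ABA receptors and kinases, maturation regulators, globulins and other VP1 targets) in the 8 libraries (columns, aleurone left of starchy endosperm, r1 and r2 for the replicates). The ABA synthesis genes vp14, vp15 and aba1 are at 0 in all starchy endosperm libraries, as vp1 is, whereas most tested receptor and kinase genes have a level in both tissues.

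Across the 8 libraries, levels of the 3 members followed each other, with Pearson correlations of 0.994 for each pair on log2(TPM + 1). These correlations describe 8 libraries that fall into 2 tissues, and 1451, 1782 and 1753 of 8512 genes compared had a correlation over 0.95 with vp1, dhn1 and mlg3. The named genes most like vp1 were ATPUP3 (r = 0.9998), the gene vp15 described above (named MOCS2A in the reference table, r = 0.9997), ocl5, GAD and dxs2. Those most like dhn1 were the oleosin GRMZM2G333069 (r = 0.998), EREB26, AD1, HDZIV8_OCL8 and glycine1. For mlg3 they were AR4 (r = 0.999), CCR, the same oleosin, plt1 and HAK8. AR4 stood at 37.6 TPM in aleurone at 22 DAP and 60.4 TPM at 18 DAP, and plt1 at 11926 and 21335 TPM, each the mean of 2 libraries.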

How the data were processed

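Per the labels' protocols, kernels of B73 plants were frozen, peeled after thawing and rinsed, and libraries followed a TruSeq protocol. FastQC, Bowtie2 2.2.3, SAMtools and RSEM 1.2.15 and the build B73 RefGen_v3 are named in the submitters' processing notes. No annotation and no strand setting is named there, so reads of antisense genes cannot be told apart. Reads shared by near-identical genes enter the expected counts as estimates. The posterior SD that RSEM gave for the count was 0 for vp1 and mlg3 in every library and at most 0.59 for dhn1. The authors deposited RSEM expected counts (unscaled read estimates), TPM with interval bounds, transcript percentages of each gene's TPM and posterior SDs of the count as a score, per the file headers. The authors' deposited table of mean TPM was not used.

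Expected counts were rounded and fitted with edgeR 4.0.16 in R 4.3.3 (quasi-likelihood, TMM, filterByExpr by group, 4 group means, all 8 libraries), with Benjamini-Hochberg adjustment over 19058 genes. SEs come from the F statistic, and adjusted p-values are from this test unless another tool is named. Alternatives were DESeq2 1.42.0, limma 3.58.1 on log2(TPM + 1) and on log2(TPM + 0.1), other scalings, no filter, only the libraries compared, a replicate block and leaving out each library. The fits were also run on simulated counts as a check of the code. The spread between replicates in that simulation was a fixed value not taken from these libraries, so it gives no error rate for them. P-values measure the spread between these libraries. Bounds use 3 counts over a group, ratios an exact 95% Clopper-Pearson interval, and both cover counting error only, since reads are not independent molecules. Replicates differed beyond sampling noise. The labels number the replicates 1 and 2 in each group without saying whether a number marks 1 plant across groups. The comparison of tissues over both ages has 4 pairs of libraries with the same number. The differences between replicates 1 and 2, taken gene by gene, were positively correlated for each of the 6 group pairings (r between 0.187 and 0.407; aleurone with starchy endosperm 0.223 at 22 DAP and 0.263 at 18 DAP), so fits with the number as a block are given where they change a call or a count.

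The members, the lists and the rule for naming were chosen with earlier results of these data known. The rule named list members called in a tissue contrast at 1 age or in an age contrast, with a mean of 5 TPM or more in a group, up to 6 a list. It also took the 5 named genes of highest correlation with each member, among genes with a mean of 20 TPM or more in a group. Of 39475 IDs, 18908 (47.9%) were found in a reference table of another assembly, used only for names. Of 70 symbols in the pathway lists, 43 were not found and 2 matched several genes. No sequence is shown, as no sequence of these genes was used here.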

Additional observations from a re-analysis of the deposited data

How the results depend on the processing

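The tissue calls over both ages were kept for vp1, dhn1 and mlg3 under every alternative run. The exact permutation p, which full separation of the tissues fixes at its smallest value, could not move with a pseudocount of 0.1. At 22 DAP, vp1 missed the threshold with edgeR and was called with RLE factors (adjusted p = 0.0403), upper quartile factors (0.0444), library size alone (0.0126), no filter (7.00e-06), the replicate block (0.0404), DESeq2 (5.12e-05) and limma (0.00121 with a pseudocount of 1, 0.00392 with 0.1). Fitting only the libraries compared ended the 22 DAP calls of dhn1 (0.137) and mlg3 (0.201). Leaving out 1 library gave adjusted p from 0.00872 to 0.217 for vp1, 0.00299 to 0.0763 for dhn1 and 0.00280 to 0.0649 for mlg3 at 22 DAP. At 18 DAP it gave 0.00557 to 0.274, 0.00306 to 0.260 and 0.00133 to 0.150. The dhn1 and mlg3 calls at 22 DAP were lost without aleurone at 22 DAP replicate 2. The age difference in aleurone, called for none of the 3, ran from -1.42 to 0.78 for vp1, -0.15 to 0.85 for dhn1 and -1.16 to 0.03 for mlg3 (log2) when 1 library was left out. It turned sign without aleurone at 22 DAP replicate 1 (0.69) or 18 DAP replicate 2 (0.78) for vp1, without 22 DAP replicate 2 (-0.15) or 18 DAP replicate 1 (-0.03) for dhn1, and without 18 DAP replicate 2 (0.030) for mlg3. The interaction of mlg3 turned sign under limma (adjusted p = 0.999 with a pseudocount of 1 and 1.00 with 0.1) and without starchy endosperm at 18 DAP replicate 2 (1.00; range 0.712 to 1.00). That of dhn1 ranged from 0.328 to 1.00. The causes were not tested. No alternative was run for vp1 in the interaction or for 22 against 18 DAP in starchy endosperm, where there were 3 counts or fewer.

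The number of genes called at 22 DAP was 322, against 580 with the replicate block, 1266 without a filter, 1623 with library size alone, 2360 with DESeq2, 10620 and 8644 with limma, 0 with only the libraries compared and 179 to 4938 with 1 library left out. At 18 DAP it was 395, against 593 with upper quartile factors, 808 with the block, 1215, 1332, 2221, 9576 and 6201 under those alternatives in the same order, 747 with only the libraries compared, 47 to 1649 with 1 library left out and 1498 without both starchy endosperm libraries at 22 DAP, an alternative chosen after seeing the data. Over both ages it was 1694, against 3002 without a filter, 6999 with library size alone, 4493 with DESeq2, 14600 and 13202 with limma and 679 to 6884 with 1 library left out. The age contrast in aleurone called 0 genes, against 6 without a filter, 3 with DESeq2 and 25 and 26 with limma. The interaction called 0, against 17 without a filter, 7 with DESeq2 and 2260 without starchy endosperm at 22 DAP replicate 1. With library size alone, 6 LEA genes, 4 genes of ABA perception and both nkd genes were called higher over both ages. With the replicate block, the changed calls were those of vp1 at 22 DAP and of the list genes given above, and it changed no other call of a member in the tissue, age or interaction comparisons.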

Other observations

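Between the ages in aleurone, none of the other tested genes of the pathway lists was called by edgeR, as no tested gene was (0%). Of these 30 genes, 6 had higher TPM in both libraries at 22 DAP than in both at 18 DAP, 4 had lower TPM in both, and 20 overlapped. These were 20% and 13.3% of the 30, against 11.4% higher and 18.5% lower without overlap over all 19058 tested genes. Such separation was thus frequent with 2 libraries against 2, and these counts are not read as a result about the lists. The genes were looked at after their values were seen, and no cause was tested. Among the higher ones, vp14 was at 7.99 and 20.7 TPM at 22 DAP against 1.26 and 1.78 TPM at 18 DAP (log2 fold change 3.42, SE 1.66, unadjusted p = 0.0799 by edgeR, adjusted p = 1). The gene aba1 was at 21.6 and 55.7 TPM at 22 DAP against 6.44 and 14.8 TPM at 18 DAP (2.02, SE 1.49). The globulin gene glb2 (GRMZM2G026703) was at 7.51 and 37.2 TPM at 22 DAP against 1.00 and 4.21 TPM at 18 DAP (3.24, SE 1.70). The other 3 were dhn2, nkd2 and nkd1, of which nkd1 was at 101 and 156 TPM at 22 DAP against 73.7 and 74.9 TPM at 18 DAP. The 4 lower ones were dehydrin7, at 70.6 and 23.8 TPM at 22 DAP against 85.4 and 83.1 TPM at 18 DAP, cat1, at 209 and 150 TPM against 220 and 219 TPM, and the receptor genes PYL10 and PYL3. Of the members, vp1 and dhn1 overlapped between the ages, and mlg3 was lower at 22 DAP without overlap.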
